A study of Mus musculus with 6 samples.

Results

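The genes described here are those of cytochrome P450 families 1 to 4, taken by symbol from the deposited tables. Of 77 such symbols, 10 pseudogenes were left out, and so were Cyp1a2, Cyp2e1, Cyp2f2, Cyp4a12a and Cyp4a12b. The 62 members fell into 18 subfamilies and were set against 55536 genes in the count table, of which 33296 had a count. RNA had been sequenced from tumours of male C3H mice, 6 to 8 weeks old at implantation, each given 1000000 HCA-1 cells under the liver capsule. HCA-1 is a mouse hepatocellular carcinoma line, so every tumour descends from 1 line, and what is taken from the organ also holds cells of the host. The mice behind the 3 TSDP libraries received TSDP into a vein 6 times from day 10 to day 23. TSDP is a nanoparticle that carries the kinase inhibitor sorafenib and DNIC (a dinitrosyl iron complex, which releases nitric oxide). Those behind the 3 Control libraries were untreated, and the labels do not mention an empty carrier. Tumours of both groups were taken on day 24.

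Cytochromes P450 are haem enzymes of the endoplasmic reticulum that insert an oxygen atom into drugs, steroids, fatty acids and bile acids. Members of families 1 to 3 carry out much of the liver's drug oxidation, and many are switched on by the receptors AhR, CAR and PXR. Family 4 mostly hydroxylates fatty acids and eicosanoids at their end carbon, and part of it responds to PPAR-alpha. Many Cyp2a, Cyp2c, Cyp2d, Cyp3a and Cyp4a genes are hepatocyte genes that tumour cells tend to lose, whereas Cyp1b1, Cyp2s1, Cyp2u1 and Cyp4v3 are also used outside the liver.

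Total counts ran from 32130808 to 38953397 per library. A list of 20 hepatocyte genes, albumin (Alb) among them, took 3.77%, 6.89% and 2.36% of counts in TSDP 1, 2 and 5, against 0.0149%, 2.89% and 0.475% in Control 3, 4 and 5. No gene of that list was at 0 in any library. Control 3 stood apart with almost no hepatocyte RNA, while Control 4 lay above TSDP 5 in this share. The mean log2 level of the same genes had the other order, at 8.66 in Control 4 and 8.98 in TSDP 5. In a bulk sample, fewer cells of a type and less RNA per cell cannot be told apart. Of the tumour markers, the epithelial keratins Krt8 and Krt18 lay between 431.5 and 724.5 CPM (counts scaled to a common library size, with TMM factors) in all 6 libraries, whereas Afp and Gpc3, 2 usual liver cancer markers, did not pass 9.20 CPM.

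The promoters of the members differ in kind, and 4 of them are printed to show the contrast between 2 members that Control 3 held at levels near those of other tumours (Cyp4v3 and Cyp1b1) and 2 that it held at under 1 CPM (Cyp2c67 and Cyp2c29). The windows run from 250 bases before to 50 bases after the gene start and come from RefSeq on GRCm38.p6, 5′ to 3′. Capitals mark each CG pair and each TATAAA, a common core promoter box. Cyp4v3 and Cyp1b1 hold 17 and 16 CG pairs and no TATAAA. Cyp2c67 and Cyp2c29 hold 1 and 2 CG pairs, with a TATAAA whose first base lies at -40 and -19 from the gene start.
Cyp4v3, chr8:45333114-45333413, minus strand: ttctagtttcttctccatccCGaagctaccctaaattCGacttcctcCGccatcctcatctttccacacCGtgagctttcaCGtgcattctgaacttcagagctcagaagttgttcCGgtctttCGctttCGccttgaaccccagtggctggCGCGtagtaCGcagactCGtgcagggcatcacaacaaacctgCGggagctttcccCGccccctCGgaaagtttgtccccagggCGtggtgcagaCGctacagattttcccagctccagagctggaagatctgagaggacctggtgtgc
Cyp1b1, chr17:79715012-79715311, minus strand: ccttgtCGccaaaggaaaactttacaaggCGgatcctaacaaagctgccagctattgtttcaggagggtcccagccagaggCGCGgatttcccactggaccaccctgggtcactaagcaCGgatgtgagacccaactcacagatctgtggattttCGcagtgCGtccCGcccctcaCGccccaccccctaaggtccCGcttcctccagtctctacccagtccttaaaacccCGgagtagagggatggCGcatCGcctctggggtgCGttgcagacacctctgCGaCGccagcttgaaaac
Cyp2c67, chr19:39648993-39649292, minus strand: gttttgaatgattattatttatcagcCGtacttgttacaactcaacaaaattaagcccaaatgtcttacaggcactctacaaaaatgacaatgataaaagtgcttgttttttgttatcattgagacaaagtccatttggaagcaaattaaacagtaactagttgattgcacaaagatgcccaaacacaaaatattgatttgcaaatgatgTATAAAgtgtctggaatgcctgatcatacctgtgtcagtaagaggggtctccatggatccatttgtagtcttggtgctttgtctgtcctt
Cyp2c29, chr19:39286835-39287134, plus strand: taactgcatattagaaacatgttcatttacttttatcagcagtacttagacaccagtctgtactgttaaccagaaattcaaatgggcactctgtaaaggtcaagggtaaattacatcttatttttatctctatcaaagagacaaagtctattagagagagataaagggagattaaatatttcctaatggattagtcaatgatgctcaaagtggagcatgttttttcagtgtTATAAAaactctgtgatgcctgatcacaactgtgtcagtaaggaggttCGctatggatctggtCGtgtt

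Windows were found for 52 of the 62 members, 58 windows in all. TATAAA, searched on both strands, was in 24 member windows (41.4%), against 13.6% of all 32851 windows in the table. All 4 Cyp2a and all 5 Cyp2d members with a window held it, as did 8 of 11 Cyp2c and 4 of 8 Cyp3a members, and 0 of 7 Cyp4f members. The median number of CG pairs was 2 in member windows and 7 in all windows, and 8.62% of member windows held 10 or more, against 43.5% of all windows. The members with 10 or more were Cyp1b1, Cyp2r1, Cyp2s1, Cyp4f39 and Cyp4v3. GCGTG, the core of the AhR response element, was in 22.4% of member windows on either strand and in 32.4% of all windows. It was present for both Cyp1a1 and Cyp1b1. These are matches of letters and not evidence of binding.

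Taken as a whole, the 62 members held 0.289%, 0.494% and 0.199% of all counts in TSDP 1, 2 and 5, against 0.0240%, 0.149% and 0.0484% in Control 3, 4 and 5. The means were 0.327% ± 0.151 in TSDP and 0.0738% ± 0.0664 in Control (SD, n = 3 each). Every TSDP library lay above every Control library, in nearly the order of the hepatocyte share. Enough counts for a test were present for 45 members. The other 17 reached at most 18 counts in any library, and 6 of them had no count in any Control library.

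With edgeR's quasi-likelihood test, adjusted over 17423 genes by the Benjamini-Hochberg method, 0 of 45 tested members were called higher and 0 lower in TSDP, and of all genes tested 0% were called in either direction. The members' edgeR adjusted p ran from 0.326 to 0.822. Log2 fold changes (TSDP over Control) were above 0 in 42 of the 45, against 47.3% of all genes, with a median of 2.26 against -0.02. At an unadjusted p under 0.05, 14 members were higher (8.6% of all genes) and 0 lower (4.75% of all genes). The 3 TSDP values all exceeded the 3 Control values for 27 members (13% of all genes) and all lay below them for 0 members (8.76% of all genes). A change of 2-fold or more was fitted as higher for 34 members (8.84% of all genes) and as lower for 2 (1.41%). By limma-voom, 31 members were higher (10.6%) and 0 lower (4.61%) at an unadjusted p under 0.05, and 0 passed its adjusted threshold. The members move with each other and with hepatocyte RNA, so these counts do not come from independent genes. The median depended on Control 4, without which it was 3.84. When the hepatocyte list's mean log2 CPM entered the model, the median was 0.23 and 27 of 45 members were above 0, against 50.4% of all genes. That score ran from 8.98 to 10.6 in TSDP and from 1.49 to 8.66 in Control. As it did not overlap between the groups, this fit cannot fully separate it from treatment. DESeq2, an alternative count test, called 5 members higher (2.98% of all genes) and 0 lower (0.397%): Cyp2c40, Cyp2j9, Cyp2u1, Cyp4a14 and Cyp4v3.

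**Figure D1:**
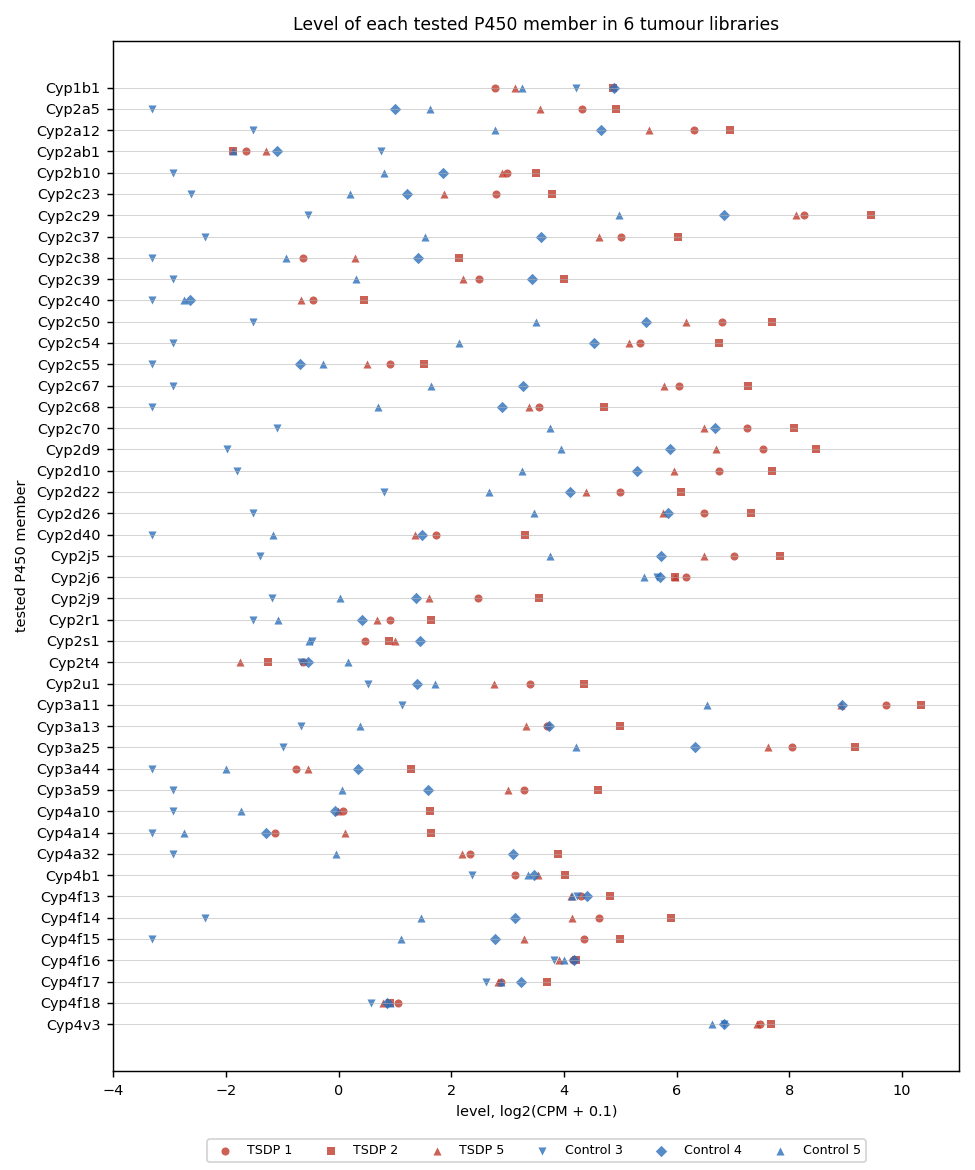
Level of the 45 tested members, as log2(CPM + 0.1) on the horizontal axis, in each library (red, TSDP; blue, Control; 1 symbol per library). For most members Control 3 lies far to the left, while Cyp2j6, Cyp4f13, Cyp4f16 and Cyp4v3 span a narrow range.

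**Figure D2:**
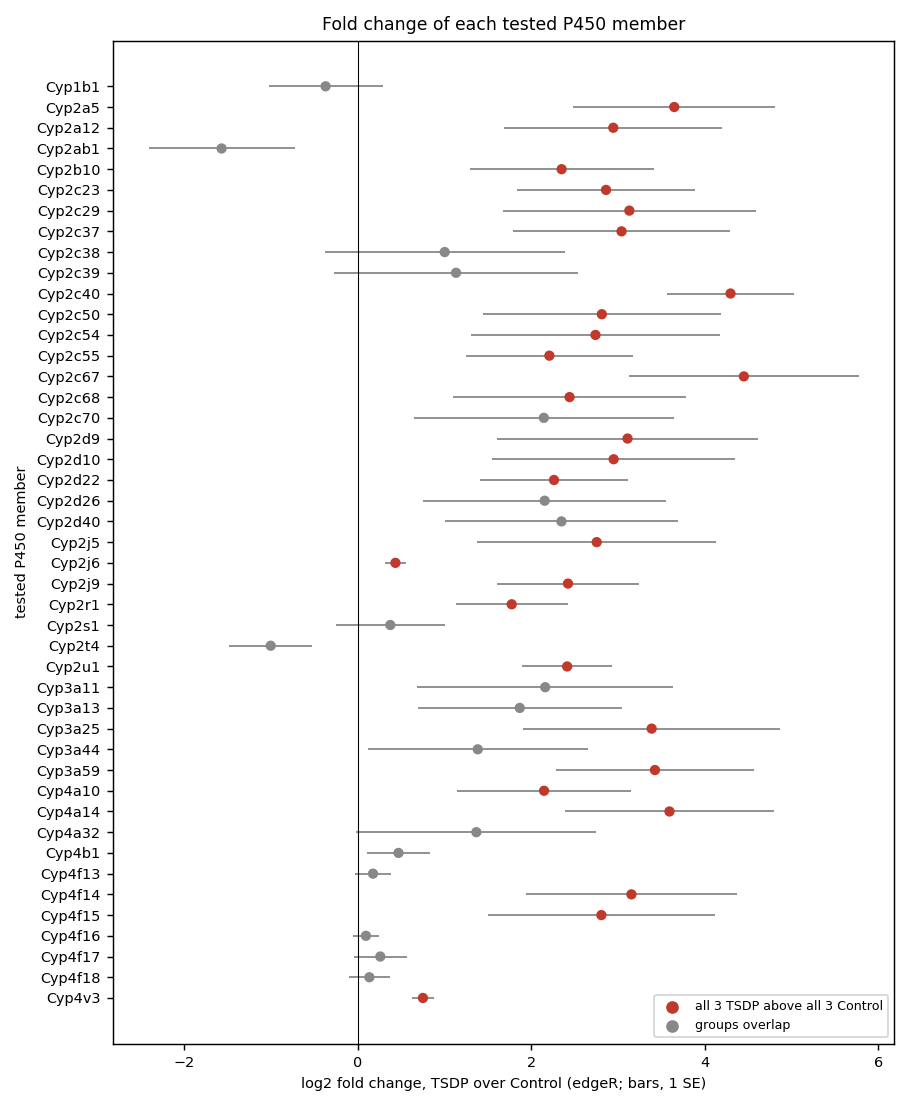
The edgeR log2 fold change (TSDP over Control) of each tested member, with bars of 1 SE, in red where all 3 TSDP values exceed all 3 Control values. The liver members have wide bars and the Cyp4f13, Cyp4f16, Cyp4v3 and Cyp2j6 bars are narrow.

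In family 1, Cyp1a1 was barely counted and Cyp1b1 overlapped between the groups. Cyp1a1, the AhR-induced oxidase of aromatic hydrocarbons, had 10, 14 and 4 counts in TSDP 1, 2 and 5, against 0, 1 and 1 counts in Control 3, 4 and 5. It was too low to be tested, although the 2 groups did not overlap. Cyp1b1, which oxidises oestrogens and aromatic hydrocarbons outside the liver, had 6.76, 29.1 and 8.68 CPM in TSDP 1, 2 and 5, against 18.4, 29.7 and 9.50 CPM in Control 3, 4 and 5. The groups overlapped widely, for an edgeR log2 ratio of -0.37 ± 0.66 (SE; adjusted p = 0.822) that turned to 0.09 without Control 4. Ahr itself overlapped, with 72.9, 117.7 and 83.0 CPM in TSDP 1, 2 and 5 and 90.4, 86.1 and 107.3 CPM in Control 3, 4 and 5. Of 4 other AhR-induced genes (Ahrr, Tiparp, Nqo1, Aldh3a1), 3 had positive and 1 negative log2 fold changes and 0 were called by edgeR (0 also at an unadjusted p under 0.05) or DESeq2, Nqo1 having the smallest p (edgeR adjusted p = 0.436).

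The Cyp2a and Cyp2b subfamilies hold steroid and drug hydroxylases of the liver. Their 3 tested members had every TSDP value above every Control value (13% of all genes did) without passing the test. Cyp2a12, a testosterone hydroxylase, had 79.2, 124.1 and 45.8 CPM in TSDP 1, 2 and 5, against 0.247, 25.3 and 6.79 CPM in Control 3, 4 and 5, for an edgeR log2 ratio of 2.95 ± 1.26 (SE; adjusted p = 0.383). Cyp2a5, the coumarin hydroxylase, had 19.9, 30.2 and 11.8 CPM in TSDP, against 0, 1.90 and 2.98 CPM in Control. Its 2 upper Control values did not follow the hepatocyte share, since Control 5 exceeded Control 4. Within Cyp2a counts, Cyp2a5 held 20.0%, 19.5% and 20.5% in TSDP 1, 2 and 5, against 0%, 6.96% and 30.5% in Control 3, 4 and 5, where the 0% of Control 3 rests on 8 Cyp2a counts and an exact 95% interval reaches 36.9%. Cyp2b10, the classic phenobarbital-induced gene under CAR, had 7.83, 11.2 and 7.39 CPM in TSDP, against 0.0309, 3.50 and 1.64 CPM in Control, for an edgeR log2 ratio of 2.35 ± 1.06 (SE; adjusted p = 0.399). Cyp2b9 stayed at 7 counts or fewer in every library.

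Cyp2c, a cluster of arachidonate and drug oxidases, was the subfamily with most tested members and held the largest fold changes. All 12 tested members of 13 had positive log2 fold changes, from 1.00 to 4.45. In 9 of them every TSDP value was higher, against 13% of all genes. Cyp2c29, a CAR-induced epoxygenase, had 305, 698 and 279 CPM in TSDP 1, 2 and 5, against 0.587, 114.5 and 31.3 CPM in Control 3, 4 and 5, for an edgeR log2 ratio of 3.13 ± 1.45 (SE; adjusted p = 0.41). Cyp2c70, which makes muricholic bile acids in mice, overlapped, with 151.6, 273 and 89.6 CPM in TSDP and 0.371, 102.5 and 13.4 CPM in Control.

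Cyp2c67 had the largest log2 fold change of all tested members. It had 66.0, 155.0 and 54.7 CPM in TSDP 1, 2 and 5, against 0.0309, 9.57 and 3.01 CPM in Control 3, 4 and 5, for an edgeR log2 ratio of 4.45 ± 1.33 (SE; adjusted p = 0.334). The lowest TSDP value was above the highest Control value by a wide margin. Cyp2c40 had 23, 44 and 19 counts in TSDP and 0, 2 and 2 counts in Control, with a fitted log2 ratio of 4.30 ± 0.73 (SE; by edgeR, adjusted p = 0.326), 4.41 by DESeq2 (adjusted p = 0.00133) and 2.43 with the hepatocyte score in the model. Reads of these 2 genes are hard to assign: 52.8% of the 50-base words in Cyp2c67 transcripts and 60.3% of those in Cyp2c40 transcripts also occur in another gene (GENCODE M21). The gene sharing most with Cyp2c67 was Cyp2c40, and with Cyp2c40 it was Cyp2c69. Cyp2c38 and Cyp2c39 were at the other end. Cyp2c39 had 5.56, 15.98 and 4.49 CPM in TSDP and 0.0309, 10.7 and 1.14 CPM in Control, so Control 4 exceeded 2 of the TSDP libraries.

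As shares of Cyp2c counts, neither Cyp2c67 nor Cyp2c39 overlapped between the groups. Cyp2c67 held 8.97%, 9.87% and 9.49% of Cyp2c counts in TSDP 1, 2 and 5, against 2.13%, 2.91% and 4.24% in Control 3, 4 and 5. The exact 95% binomial interval was 9.09% to 9.90% in TSDP 5 and 3.53% to 5.04% in Control 5, but 0.0539% to 11.3% in Control 3, which had only 47 Cyp2c counts. Cyp2c39 went the other way, with 0.756%, 1.02% and 0.78% in TSDP and 2.13%, 3.25% and 1.61% in Control. Its 2.13% in Control 3 is 1 count, with an interval of 0.0539% to 11.3% that covers all 3 TSDP shares. Intervals cover counting error only.

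**Figure D3:**
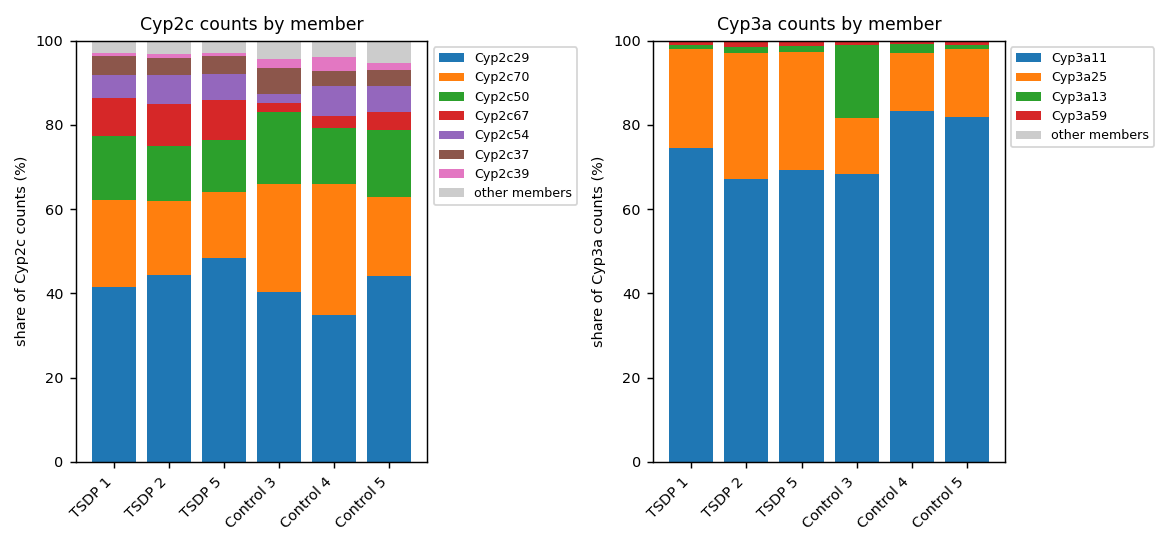
Stacked bars of the share of Cyp2c counts (left) and Cyp3a counts (right) held by each named member in each library, in percent of the subfamily's counts. Cyp2c67 and Cyp3a25 take larger shares in the 3 TSDP libraries than in the 3 Control libraries; the Control 3 bars rest on 47 and 98 counts.

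All 5 tested Cyp2d members of 7 had positive log2 fold changes, from 2.16 to 3.11. Cyp2d9, a male-specific testosterone hydroxylase, had 184.5, 357 and 103.9 CPM in TSDP 1, 2 and 5, against 0.154, 59.3 and 15.3 CPM in Control 3, 4 and 5, for an edgeR log2 ratio of 3.11 ± 1.51 (SE; adjusted p = 0.423). Cyp2d22 had 31.7, 67.4 and 21.01 CPM in TSDP and 1.64, 17.1 and 6.24 CPM in Control, and was unlike its relatives in Control 3, where it made up 73.6% of the 72 Cyp2d counts, against 7.61% to 14.7% in the other 5 libraries. Cyp2d26 and Cyp2d40 overlapped between the groups. Of 9 female-biased genes listed (among them Cyp2a4, Cyp2b9, Cyp2c40 and Cyp3a44), 6 were in the table. Only 2 could be tested, Cyp2c40 and Cyp3a44, both with positive log2 fold changes. Cyp2c40 reached enough counts for a test only through the TSDP libraries (23, 44 and 19 counts, against 0, 2 and 2 in Control). Its direction therefore says little about the list. By edgeR 0 were called (1 at an unadjusted p under 0.05, against 8.6% of all genes higher). DESeq2 called Cyp2c40, against 2.98% of all genes higher.

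Cyp3a11, the main PXR-induced drug oxidase of mouse liver, overlapped between the groups. It had 839, 1296 and 485 CPM in TSDP 1, 2 and 5, against 2.07, 490.2 and 93.4 CPM in Control 3, 4 and 5, for an edgeR log2 ratio of 2.16 ± 1.48 (SE; adjusted p = 0.538), and Control 4 lay just above TSDP 5. With the hepatocyte score in the model its direction turned, at -0.42 (edgeR adjusted p = 0.911). Cyp3a25, beside it in the subfamily, did not overlap, with 264, 577 and 197.7 CPM in TSDP and 0.402, 80.3 and 18.4 CPM in Control, for an edgeR log2 ratio of 3.39 ± 1.48 (SE; adjusted p = 0.39). Cyp3a25 held 23.4%, 29.9% and 28.2% of Cyp3a counts in TSDP, against 13.3%, 13.7% and 16.2% in Control. Of its 50-base words 26.8% also occur in another gene, chiefly Cyp3a59, whose groups did not overlap either. Cyp3a13, a gut and liver member, overlapped, with 12.9, 31.8 and 9.88 CPM in TSDP and 0.525, 13.2 and 1.19 CPM in Control. Of 6 P450 genes listed as induced through CAR or PXR, all were positive and 5 did not overlap (13% of all genes had every TSDP value higher). EdgeR called 0 (1 at an unadjusted p under 0.05, against 8.6% of all genes higher), and DESeq2 called 0. Their median log2 fold change was 2.58, against -0.02 for all genes and 2.56 for the hepatocyte list.

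Per kilobase of exon (GENCODE M21), Cyp3a11 and Cyp3a25 were close in TSDP and apart in Control. Cyp3a11 had 164.8, 254 and 95.3 CPM per kilobase in TSDP 1, 2 and 5, and Cyp3a25 126.5, 277 and 94.9 CPM per kilobase in the same libraries. In Control 4 and 5 Cyp3a11 had 96.2 and 18.3 CPM per kilobase and Cyp3a25 38.5 and 8.85. In Control 3 the highest level per kilobase among the members was that of Cyp4v3, at 30.1 CPM per kilobase, against 0.406 for Cyp3a11. The length used joins all annotated exons of a gene, 5093 bases for Cyp3a11 and 2083 for Cyp3a25. The closeness in TSDP rests on these lengths, and a shorter Cyp3a11 transcript would give it higher values per kilobase. The lengths may also differ from those of the annotation used for counting.

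Set against hepatocyte RNA rather than all RNA, Cyp2c and Cyp3a were still higher in every TSDP library. Summed Cyp2c counts were 19.4, 21.6 and 24.1 per 1000 hepatocyte-list counts in TSDP 1, 2 and 5, against 9.68, 11.6 and 15.4 in Control 3, 4 and 5 (21.7 ± 2.34 in TSDP and 12.2 ± 2.93 in Control, SD, n = 3 each). Summed Cyp3a counts were 29.7, 26.5 and 29.3 in TSDP and 20.2, 20.6 and 24.8 in Control (28.5 ± 1.75 and 21.9 ± 2.54). Control 3, with its few hepatocyte counts, gave ratios close to those of Control 4. Summed Cyp2d counts overlapped. With 3 libraries against 3, a two-sided exact permutation test cannot give a p below 0.1, and none is quoted for these ratios.

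Among single members, Cyp2c67 stood at 1.74, 2.13 and 2.29 per 1000 hepatocyte-list counts in TSDP 1, 2 and 5, against 0.206, 0.336 and 0.654 in Control 3, 4 and 5. The 0.206 of Control 3 is 1 count, with an exact 95% interval of 0.00522 to 1.15. Cyp3a25 had 6.96, 7.92 and 8.27 in TSDP, against 2.68, 2.82 and 4.01 in Control, and Cyp2d9 4.87, 4.91 and 4.34 in TSDP, against 1.03, 2.08 and 3.33 in Control. Cyp3a11 overlapped, with 22.2, 17.8 and 20.3 in TSDP and 13.8, 17.2 and 20.3 in Control. Of the 45 tested members, 14 were higher in all 3 TSDP libraries on this scale (0.832% of all genes) and 7 lower (24.1% of all genes). Control 3 had only 4853 hepatocyte-list counts, so genes that did not fall with hepatocyte RNA get high ratios there. Cyp4v3, for one, stood at 765 in Control 3, against 2.80 to 7.20 in TSDP. The 0.832% is therefore low by construction and is no yardstick for hepatocyte genes. The 14 were Cyp2a12, Cyp2c29, Cyp2c37, Cyp2c40, Cyp2c50, Cyp2c54, Cyp2c67, Cyp2c70, Cyp2d9, Cyp2d10, Cyp2j5, Cyp3a25, Cyp3a59 and Cyp4f14. Their Control 3 values rest on few counts, from 0 for Cyp2c40 to 19 for Cyp2c29. The exact 95% upper bound of Control 3 lay below every TSDP value only for Cyp2c29, Cyp2c67, Cyp2d9 and Cyp3a25. For the others it passed the lowest TSDP value, as for Cyp2a12 (3.25, against 1.71 in TSDP 2). The scale depends on the list: fibrinogen and haemopexin genes made up 39.9% of hepatocyte-list counts in Control 4, against 19.7% to 22.1% in the other 5 libraries. Against albumin counts alone, an alternative added after the values were seen, 11 of the 14 were higher in all 3 TSDP libraries. Cyp2a12, Cyp2c70 and Cyp4f14 were not among them. Of all genes 0.66% were higher, a share that is low for the same reason. In the edgeR fit with the hepatocyte score as a covariate, 0 members passed (lowest adjusted p = 0.436).

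**Figure D4:**
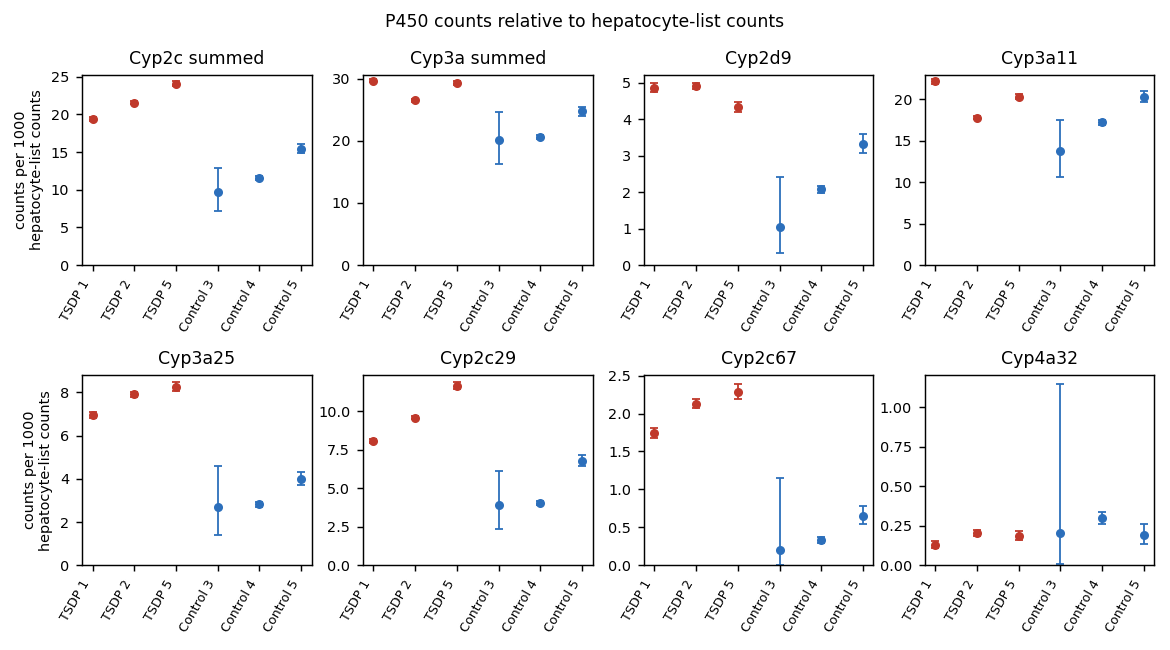
Counts per 1000 hepatocyte-list counts in each library for summed Cyp2c and Cyp3a and for 6 members (red, TSDP; blue, Control; bars, exact 95% interval for counting error). Cyp2c67, Cyp3a25, Cyp2c29 and Cyp2d9 are higher in the 3 TSDP libraries, while Cyp3a11 and Cyp4a32 overlap.

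The remaining family 2 members separated into liver and broad ones. Cyp2j5, an epoxygenase of liver and kidney, had 129.8, 229.9 and 89.6 CPM in TSDP 1, 2 and 5, against 0.278, 52.9 and 13.4 CPM in Control 3, 4 and 5. Cyp2j6 was present in all tumours, with 71.6, 62.6 and 62.3 CPM in TSDP and 50.5, 52.3 and 42.6 CPM in Control, for an edgeR log2 ratio of 0.44 ± 0.12 (SE; adjusted p = 0.326), without overlap. Cyp2u1, a fatty acid hydroxylase found in brain and thymus, had 10.5, 20.4 and 6.70 CPM in TSDP, against 1.33, 2.51 and 3.18 CPM in Control, for an edgeR log2 ratio of 2.41 ± 0.51 (SE; adjusted p = 0.326). Its Control values did not follow the hepatocyte share, and it was among the DESeq2 calls (adjusted p = 8.54e-05). Cyp2r1, which activates vitamin D, had 1.78, 3.03 and 1.51 CPM in TSDP and 0.247, 1.23 and 0.373 CPM in Control. Cyp2s1 overlapped, with 1.29, 1.76 and 1.90 CPM in TSDP and 0.618, 2.61 and 0.597 CPM in Control. Cyp2ab1 and Cyp2t4 were, with Cyp1b1, the members with negative log2 fold changes. Cyp2ab1 had 8, 6 and 11 counts in TSDP and 51, 12 and 7 counts in Control, so its value of -1.57 ± 0.84 (SE, edgeR adjusted p = 0.456) rests on Control 3, without which it was -0.21. Cyp2t4 had 20, 11 and 7 counts in TSDP and 17, 19 and 41 counts in Control.

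In family 4, the PPAR-alpha-induced Cyp4a genes were low and the Cyp4f genes split. Cyp4a10 had 0.959, 2.98 and 0.893 CPM in TSDP 1, 2 and 5, against 0.0309, 0.859 and 0.199 CPM in Control 3, 4 and 5. Cyp4a14 had 13, 104 and 35 counts in TSDP and 0, 10 and 2 counts in Control, for an edgeR log2 ratio of 3.59 ± 1.21 (SE; adjusted p = 0.334). TSDP 2 alone held more Cyp4a14 counts than the other 5 libraries together. Cyp4a32 overlapped, with 4.96, 14.8 and 4.44 CPM in TSDP and 0.0309, 8.49 and 0.87 CPM in Control, and 43.8% of its 50-base words also occur in another gene, chiefly Cyp4a10. Of 6 other PPAR-alpha-induced genes 5 had positive log2 fold changes and 0 were called by edgeR (2 at an unadjusted p under 0.05) or DESeq2. Ehhadh had the smallest p (edgeR adjusted p = 0.334). Of all genes, 8.6% were higher and 4.75% lower at that unadjusted threshold.

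Cyp4f14 and Cyp4f15 had 24.5, 59.5 and 17.6 CPM and 20.3, 31.7 and 9.65 CPM in TSDP 1, 2 and 5, against 0.0927, 8.65 and 2.66 CPM and 0, 6.75 and 2.06 CPM in Control 3, 4 and 5. Both followed the liver members. Cyp4f13 was near-constant, with 19.6, 28.2 and 17.3 CPM in TSDP and 18.8, 21.2 and 17.6 CPM in Control, for an edgeR log2 ratio of 0.18 ± 0.21 (SE; adjusted p = 0.721) that turned to -0.07 without TSDP 2. Cyp4f16, Cyp4f17 and Cyp4f18 lay likewise between 0.10 and 0.26 on the log2 scale. Cyp4b1, best known as a lung enzyme, overlapped, at 8.71, 16.1 and 11.5 CPM in TSDP and 5.07, 10.9 and 10.2 CPM in Control.

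Cyp4v3, the mouse counterpart of the fatty acid hydroxylase mutated in human Bietti crystalline dystrophy, had the smallest edgeR p of all members, 0.000728, although Cyp2u1 had the smaller p by DESeq2, and Cyp2c67 with the hepatocyte score in the model. It had 178.4, 203.7 and 172.2 CPM in TSDP 1, 2 and 5, against 114.7, 115.1 and 99.2 CPM in Control 3, 4 and 5, for an edgeR log2 ratio of 0.75 ± 0.12 (SE; adjusted p = 0.326). The groups did not overlap, and Control 3 lay within 1 CPM of Control 4 although their hepatocyte shares lay far apart. Adding the hepatocyte score to the model gave a log2 fold change of 0.75 (edgeR adjusted p = 0.649), and leaving out any 1 library left it between 0.67 and 0.80. DESeq2 called it (adjusted p = 0.000169). Of 9 P450 genes listed as used outside the liver 8 were tested and 7 were positive, with a median log2 fold change of 0.45. In 4 (Cyp2j6, Cyp2r1, Cyp2u1 and Cyp4v3) every TSDP value was higher, against 13% of all genes. EdgeR called 0 (4 at an unadjusted p under 0.05, against 8.6% of all genes higher). DESeq2 called 2 (Cyp2u1 and Cyp4v3), against 2.98% of all genes higher. With the hepatocyte score in the model the log2 fold change went from 1.78 to 0.63 for Cyp2r1 and from 2.41 to 1.57 for Cyp2u1. It stayed at 0.44 for Cyp2j6 and 0.75 for Cyp4v3.

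Among the 35 tested members with a single promoter window, those with the largest fold changes had few CG pairs. All 20 with a log2 fold change of 2 or more held at most 6, and the 4 with 10 or more (Cyp1b1, Cyp2r1, Cyp2s1, Cyp4v3) lay between -0.37 and 1.78. Low CG content was not confined to liver members: Cyp2j6 and Cyp4f16 held 4 and 2. The median log2 fold change was 2.55 for the 16 members with TATAAA and 0.75 for the 19 without. Tested members with several windows were left out: Cyp3a25 (3.39) and Cyp4f14 (3.16), both without TATAAA, and Cyp2c39 (1.13), with it. Counting them would narrow the gap between these medians. Other tested members were absent because no window was found. These were Cyp2c23, Cyp2c54, Cyp2d22, Cyp2u1, Cyp4a10 and Cyp4a14, with log2 fold changes of 2.15 to 3.59, and Cyp4f17 (0.26). No test was made, since the members of a cluster share sequence.

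**Figure D5:**
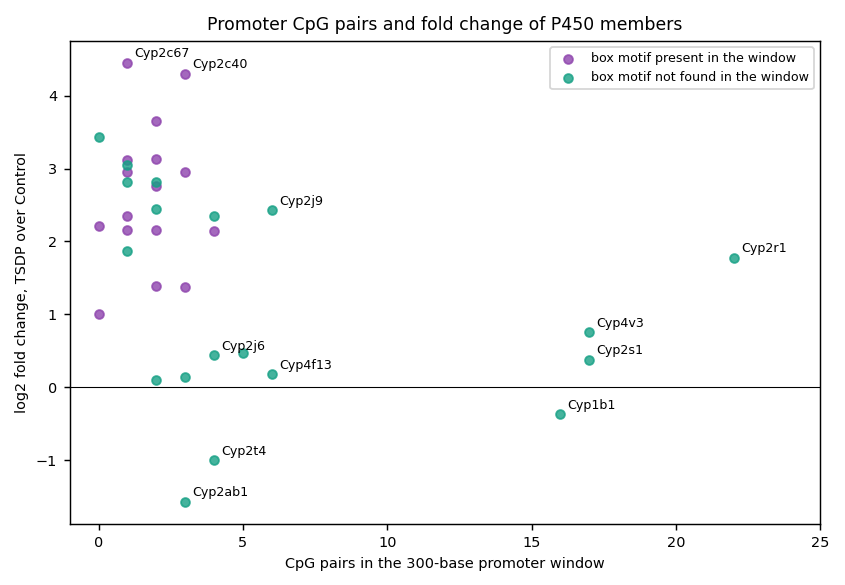
Log2 fold change (TSDP over Control) against the number of CpG pairs in the 300-base promoter window for 35 tested members with 1 window each, coloured by whether the TATA-type box was found. Members above 2 on the vertical axis hold at most 6 pairs; Cyp1b1, Cyp2r1, Cyp2s1 and Cyp4v3 hold 16 to 22.

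The partners of the enzymes were measured alongside. For the counts below, 8.6% of all genes were higher and 4.75% lower at an unadjusted edgeR p under 0.05. DESeq2 called 2.98% of all genes higher and 0.397% lower. Por, the reductase that feeds electrons to all microsomal P450s, was near-constant, at 96.4, 96.7 and 89.0 CPM in TSDP 1, 2 and 5 and 81.7, 90.9 and 86.8 CPM in Control 3, 4 and 5. Of 7 redox partners 5 had positive and 2 negative log2 fold changes; edgeR called 0 (2 at an unadjusted p under 0.05) and DESeq2 called Cyb5a and Pgrmc1 higher. Among them Cyb5a (cytochrome b5) had the smallest edgeR p, with 192.9, 295 and 140.5 CPM in TSDP and 48.8, 105.0 and 57.5 CPM in Control (edgeR adjusted p = 0.326). All 8 genes of haem synthesis had positive log2 fold changes, 7 without overlap (13% of all genes tested had every TSDP value above every Control value); edgeR called 0 (6 at an unadjusted p under 0.05) and DESeq2 called Alas1, Cpox and Uros higher. Alas1, the rate-limiting enzyme in liver, had 57.4, 101.3 and 38.6 CPM in TSDP and 14.5, 30.2 and 25.6 CPM in Control, and Uros had the smallest p, at 17.1, 17.7 and 14.3 CPM in TSDP and 10.0, 10.4 and 10.4 CPM in Control (edgeR adjusted p = 0.326). Of 6 receptor genes 4 were positive and 2 negative; edgeR called 0 (2 at an unadjusted p under 0.05) and DESeq2 called Rxra higher, which also had the smallest edgeR p (adjusted p = 0.326). PXR (Nr1i2) had 12.5, 21.4 and 7.23 CPM in TSDP and 0.124, 6.01 and 0.92 CPM in Control, CAR (Nr1i3) 5.64, 15.0 and 4.21 CPM in TSDP and 0.0618, 2.94 and 0.895 CPM in Control, and Ppara 24.7, 50.2 and 16.7 CPM in TSDP and 0.0618, 10.2 and 2.61 CPM in Control. The epoxide hydrolases had 3 tested members of 4, all positive; edgeR called 0 (1 at an unadjusted p under 0.05) and DESeq2 called Ephx2 higher. Ephx2, which opens the epoxides that Cyp2c and Cyp2j enzymes make, had 156.9, 220.0 and 96.5 CPM in TSDP and 9.33, 44.6 and 24.1 CPM in Control (edgeR adjusted p = 0.326).

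Markers of the other cell types a tumour can hold were also mostly positive. Endothelial, fibroblast, macrophage and T cell marker lists had median log2 fold changes of 0.40, 0.33, 0.25 and 0.59, with 6 of 6, 6 of 6, 5 of 6 and 5 of 5 members positive, beside 2.56 and 20 of 20 for the hepatocyte list. Of these lists edgeR called 0 genes (2 endothelial and 4 hepatocyte genes had an unadjusted p under 0.05), and DESeq2 called Kdr higher. Of all genes, 8.6% were higher and 4.75% lower at that unadjusted threshold, and DESeq2 called 2.98% higher. The smallest edgeR adjusted p in them were those of Kdr (0.334), Dcn (0.509), Csf1r (0.53) and Cd4 (0.417), with 5 of 7 tumour markers positive (median 0.12), 0 called by edgeR (1 at an unadjusted p under 0.05) or DESeq2; in the tumour and hepatocyte lists they were those of Afp (0.353) and Tat (0.342). Alb had 17147, 32438 and 11314 CPM in TSDP 1, 2 and 5 and 62.7, 10350 and 1993 CPM in Control 3, 4 and 5. What part liver tissue taken with the tumour has in the P450 values was not tested.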

How the data were processed

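RNA of 6 tumours was purified with RNeasy columns and made into KAPA mRNA libraries, per the labels' protocols. The submitters' processing notes name HISAT2 2.1.0, Trimmomatic 0.38, featureCounts 2.0.0, FastQC, CASAVA and MultiQC. For build, annotation and strand: not given in the sources used here. Reads of a gene and of one overlapping it, on either strand, therefore cannot be separated. The authors deposited whole read counts for 55536 genes. The deposited normalized signal, which carries the symbols, is each count divided by 1 constant per library and entered no test. Groups came from titles. Whether replicates were separate animals is not stated, and p-values then cover only the spread among these libraries, which may be technical. No library repeated another, the lowest chi-square per gene between 2 of them being 47.7.

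Tests used R 4.3.3 and edgeR 4.0.16: TMM, filterByExpr (minimum count 10), legacy quasi-likelihood, group as the only term, Benjamini-Hochberg adjustment over 17423 genes at 0.05. Each SE was taken as the size of the log2 ratio divided by the root of F. DESeq2 1.42.0, limma 3.58.1 (voom), other scalings and filters, a hepatocyte score (mean log2 CPM, prior count 2) and leaving out each library were alternatives. The edgeR step was tested on simulated data. Named members were the most counted of each subfamily, the 5 of smallest p in each direction and a list of 19 genes; others are named where a count or contrast turned on them, after their values were seen. Members and lists were chosen with earlier results of these data known, and 1 of the marker lists is not reported here. All 62 IDs matched GENCODE M21, which gave exon lengths and 50-base words shared between genes (28 members shared 10% or more).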

Additional observations from a re-analysis of the deposited data

How the results depend on the processing

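With 3 libraries a group, low members are limited by depth: 3 counts are 0.0770 to 0.0934 CPM of library totals. No paired analysis was possible because the groups share only the replicate number 5. All genes called by edgeR numbered 0, 1 without the low-count filter and 620 by DESeq2. Members called numbered 0 by edgeR and 5 by DESeq2, and 0 under the other alternatives, each library left out included. The hepatocyte score as covariate lowered the members above 0 from 42 to 27 and their median log2 fold change from 2.26 to 0.23. Without each library in turn the median ran from 1.70 to 3.84 and the members above 0 from 39 to 43, and with limma-voom the median was 3.58. The count higher per hepatocyte-list count was 14. Leaving out a library can only keep or raise that count (14 to 20), so this range is no check of it. With the covariate the direction turned for 17 tested members (adjusted p of 0.439 or more by edgeR), of which the named ones are Cyp2ab1 (0.35), Cyp2s1 (-0.44), Cyp3a11 (-0.42), Cyp4a10 (-0.10), Cyp4a32 (-1.42) and Cyp4b1 (-0.20), and the largest is Cyp2c38 (-2.10). Without some library it turned for 5: Cyp2c38, Cyp4f16, Cyp4f17, Cyp4f13 (-0.068 to 0.31) and Cyp1b1 (-1.32 to 0.085). The cause was not tested.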

Other observations

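Control 4 and TSDP 5 are the libraries of the 2 groups closest in hepatocyte share, a pair seen only after the shares were computed, and 1 library a group gives no test. TSDP 5 had 485 CPM of Cyp3a11 and Control 4 490.2 CPM. In TSDP 5 Cyp2c67 had 54.7 CPM, Cyp2c29 279 CPM and Cyp3a25 197.7 CPM, against 9.57, 114.5 and 80.3 CPM in Control 4. Cyp2c39, Cyp4a32 and Cyp3a44 lay the other way, with 4.49, 4.44 and 0.586 CPM in TSDP 5 and 10.7, 8.49 and 1.17 CPM in Control 4. The 10 pseudogene symbols left out of the members together had 315, 1354 and 257 counts in TSDP 1, 2 and 5, against 18, 283 and 80 counts in Control 3, 4 and 5.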
